A study of Mus musculus with 9 samples.

Results

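The miRNAs described here are mmu-miR-146a-5p, mmu-miR-146b-5p and mmu-miR-155-5p, 3 miRNAs tied to inflammatory signalling, in extracellular vesicles of mouse podocytes. They were taken by name from the 1915 mouse miRNA identifiers of each table, of which 479 were listed above 0 in any library. Podocytes are the epithelial cells that cover the outer face of the kidney's filtering capillaries. The cells were a conditionally immortalized mouse podocyte cell line, which grows at a permissive temperature with interferon-γ and was differentiated for 10 days at body temperature without it, in medium with fetal bovine serum. They were then kept for 48 h in 1 of 3 media, with 3 libraries each: normal glucose (5.3 mM), high glucose (30 mM), or mannitol (24.7 mM of this sugar alcohol on top of 5.3 mM glucose, as the control for osmolality). All groups share the same line and serum. Whether vesicles of the serum itself were removed first, and how many cultures were used, is not in the labels. A polymer reagent was used to precipitate vesicles from the supernatant, and their small RNA was sequenced.

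miRNAs guide Argonaute proteins to mRNAs, mainly through the seed, bases 2 to 8 from the 5′ end. Transcription of miR-146a and miR-155 is raised by NF-κB, the transcription factor of innate immune signalling. By background knowledge, miR-146a and miR-146b repress Irak1 and Traf6, adaptors that carry the signal from Toll-like and interleukin-1 receptors, and so form a brake on that pathway. In contrast, miR-155 represses Socs1 and Inpp5d, which restrain cytokine signalling, and is known for promoting inflammatory responses in myeloid and lymphoid cells. All 3 have been studied in diabetic kidney disease.

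The mature sequences are shown because the report turns on 2 seed groups, and they come from RefSeq on GRCm38.p6, read 5′ to 3′ with the seed in capitals.
miR-146a-5p: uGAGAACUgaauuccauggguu
miR-146b-5p: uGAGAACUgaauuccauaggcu
miR-155-5p: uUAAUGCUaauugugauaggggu
The seed GAGAACU was held by 2 mature miRNA names in the RefSeq table, miR-146a-5p and miR-146b-5p, and the seed UAAUGCU by 1, miR-155-5p. Along their 22 bases miR-146a-5p and miR-146b-5p are identical at 20, the first 17 included. The differences are G18A and U21C, each written as the miR-146a-5p base, the position from the 5′ end, and the miR-146b-5p base. Reads of these 2 can therefore be told apart only at their 3′ end, and how the counting treated reads that were cut short there is not stated in the sources used here.

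The hairpins are shown with the 5′ arm in capitals, because that arm alone was listed in these libraries.
Mir146, chr11:43374397-43374461, minus strand: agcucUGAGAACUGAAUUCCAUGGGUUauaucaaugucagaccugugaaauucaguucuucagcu
Mir146b, chr19:46342762-46342870, plus strand: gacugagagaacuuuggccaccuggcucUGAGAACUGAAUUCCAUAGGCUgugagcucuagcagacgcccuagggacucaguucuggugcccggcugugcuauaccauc
Mir155, chr16:84714140-84714204, plus strand: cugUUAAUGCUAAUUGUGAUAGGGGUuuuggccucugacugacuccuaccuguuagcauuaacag
The 3 hairpins lie on different chromosomes. In the GENCODE M21 annotation of the same build, Mir146 lies in no other annotated gene, with Pttg1 45789 bp away on 1 side and Atp10b 112112 bp away on the other. Mir146b lies within Mfsd13a, in an intron of the 1 of its 5 annotated transcripts that spans the hairpin, on the same strand. Mir155 lies in exon 2 of its host non-coding RNA Mir155hg, in 2 of 2 annotated transcripts.

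Total miRNA counts ran from 725211 to 2553690 per library, and levels are given as CPM, the share of a miRNA in all miRNA counts of its library. The smallest count above 0 was 10 in each library, and a miRNA listed at 0 may have had up to 9 reads, which is 3.52 to 12.4 CPM depending on the library. A change in the level of a miRNA per vesicle and a change in how many vesicles carry it cannot be told apart in such bulk RNA. The 3 miRNAs together made up 0.0680% to 0.152% of miRNA counts, with a median of 0.0926%.

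The most abundant of the 3 was miR-146b-5p, the copy from the Mfsd13a intron. It stood at 580, 688 and 984 CPM in the normal glucose libraries, numbered 1 to 3 by their titles. With mannitol it stood at 477, 656 and 395 CPM, and in high glucose at 688, 786 and 635 CPM. The highest library was normal glucose replicate 3 and the lowest mannitol replicate 3, and all 3 groups overlapped. Group levels were 751 ± 209 CPM in normal glucose, 509 ± 133 CPM with mannitol and 703 ± 76.5 CPM in high glucose (SD, n = 3 each). Its rank by level ran from 75 among the 347 listed miRNAs of normal glucose replicate 3 to 105 among the 419 of mannitol replicate 3.

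The other copy with the same seed, miR-146a-5p, stood at 159, 166 and 351 CPM in normal glucose. It stood at 148, 194 and 196 CPM with mannitol and at 211, 176 and 182 CPM in high glucose. Outside normal glucose replicate 3 the 8 other libraries lay between 148 and 211 CPM, and the groups overlapped. Group levels were 225 ± 109 CPM in normal glucose, 180 ± 27.2 CPM with mannitol and 190 ± 18.5 CPM in high glucose (SD, n = 3 each). Its rank ran from 115 to 148.

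The lowest of the 3 was miR-155-5p, at 98.7, 81.9 and 182 CPM in normal glucose. It stood at 60.9, 76.2 and 88.6 CPM with mannitol and at 120, 94.8 and 109 CPM in high glucose. Every mannitol library lay below every high glucose library, while mannitol replicate 3 lay above normal glucose replicate 2. Group levels were 121 ± 53.3 CPM in normal glucose, 75.2 ± 13.8 CPM with mannitol and 108 ± 12.6 CPM in high glucose (SD, n = 3 each). Its rank ran from 136 to 196. The order of levels, miR-146b-5p above miR-146a-5p above miR-155-5p, was the same in all 9 libraries, but read counts of different miRNAs also depend on how well each sequence is ligated, so it is an order of reads and not of molecules.

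**Figure D1:**
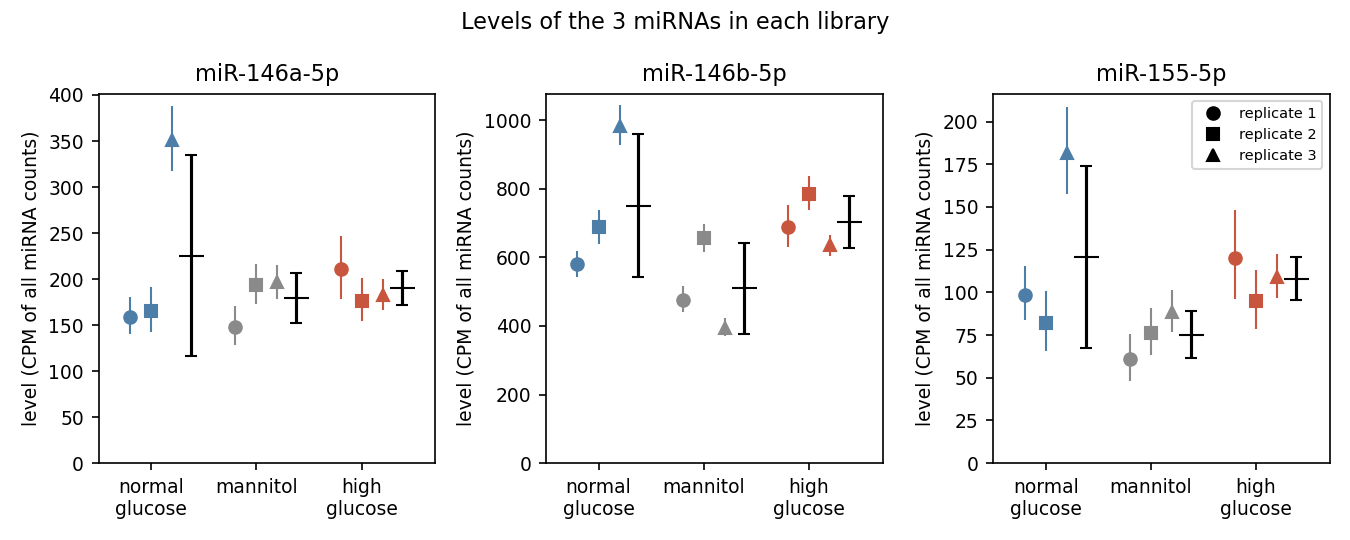
Level of miR-146a-5p, miR-146b-5p and miR-155-5p (CPM of all miRNA counts, vertical axis) in each library by treatment; marker shapes give the number in the titles, thin bars the exact 95% binomial interval of each library, and black bars the group mean ± SD (n = 3). Normal glucose replicate 3 is the highest library in each panel, at 351, 984 and 182 CPM, and the mannitol libraries of miR-155-5p, at 60.9 to 88.6 CPM, lie below those of high glucose, at 94.8 to 120 CPM.

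Counting error was small beside these differences for miR-146b-5p and larger for miR-155-5p. Counts ran from 499 to 1621 for miR-146b-5p, from 153 to 466 for miR-146a-5p and from 81 to 278 for miR-155-5p. The lowest library of miR-155-5p, mannitol replicate 1 at 60.9 CPM, had an exact (Clopper-Pearson) 95% binomial interval of 48.4 to 75.7 CPM, and normal glucose replicate 3, at 182 CPM, one of 157 to 208 CPM. Such intervals cover counting error only, since reads without molecular identifiers are not independent molecules. In normal glucose the coefficient of variation was 48.4% for miR-146a-5p and 44.2% for miR-155-5p, where counting alone gives at most 8.08% and 11.1% in any library.

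In CPM the level of normal glucose replicate 3 was 1.67 times that of the next highest library for miR-146a-5p, 1.51 times for miR-155-5p and 1.25 times for miR-146b-5p. With edgeR's TMM scaling miR-146b-5p was highest in high glucose replicate 2 (916, with 884 in normal glucose replicate 3). By the deposited normalized values miR-146a-5p was highest in mannitol replicate 3 (19.1, with 17.2 in normal glucose replicate 3). In those values miR-146b-5p was highest in high glucose replicate 3 (50.8, with 48.2). Of all 361 tested miRNAs, 52 (14.4%) had their highest CPM in normal glucose replicate 3. Among them were the mesenchymal miR-143-3p, whose level of 2861 CPM compares with 1533 CPM in the next library, and the endothelial miR-126a-3p, with 790 and 652 CPM. Mannitol replicate 1 had more such miRNAs, 69 (19.1%). Summed over the marker lists, normal glucose replicate 3 held the highest mesenchymal level (3405 CPM, with 1090 to 2081 CPM in the others) and the highest endothelial level (825 CPM, with 229 to 678 CPM in the others). Most of that mesenchymal sum was miR-143-3p, and the rest of the mesenchymal list was highest elsewhere. There miR-199a-3p had 350 CPM (403 CPM in mannitol replicate 2) and miR-214-3p 171 CPM (287 CPM in mannitol replicate 3). The level of miR-145a-5p was 22.6 CPM there and 35.9 CPM in high glucose replicate 1. The part of these cell types in the levels of the 3 miRNAs was not tested.

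The other arm of each hairpin, miR-146a-3p, miR-146b-3p and miR-155-3p, was listed at 0 in all 9 libraries. Against the 9 reads that a listed 0 allows, the 5′ arm of Mir146b had at least 55.4 to 180 times as many reads, depending on the library. The same lower bound was 17.0 to 51.8 times for Mir146 and 9.0 to 30.9 times for Mir155. The 5′ arm is the one known to be loaded into Argonaute for all 3 hairpins.

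Since miR-146a and miR-155 are also abundant in leukocytes, a list of 8 blood and immune cell miRNAs was read beside them. A defining leukocyte miRNA, miR-142a-3p, was listed at 0 in 9 of 9 libraries. The myeloid miR-223-3p was listed in 5 libraries, at up to 16.5 CPM and 18 reads, and the lymphoid miR-150-5p in 8, at up to 41.4 CPM. From the other arm of the miR-142a hairpin, however, miR-142a-5p was listed in 8 libraries, at up to 24.8 CPM and 47 reads. The erythroid miR-144-3p was listed in 1 library, at 6.92 CPM. Each of these stood below all 3 members in every library, as the plot against immune markers shows. Higher were miR-486a-5p and miR-451a, known from red blood cells, and miR-342-3p, which is found in lymphoid and other cells. In normal glucose they stood at 6345 ± 1916, 198 ± 61.3 and 660 ± 383 CPM (SD, n = 3 each). Summed over the list, levels ran from 5702 to 8941 CPM in normal glucose, 4185 to 11577 CPM with mannitol and 3634 to 5281 CPM in high glucose, most of it miR-486a-5p, whose reads cannot be told from those of the identical miR-486b-5p.

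**Figure D2:**
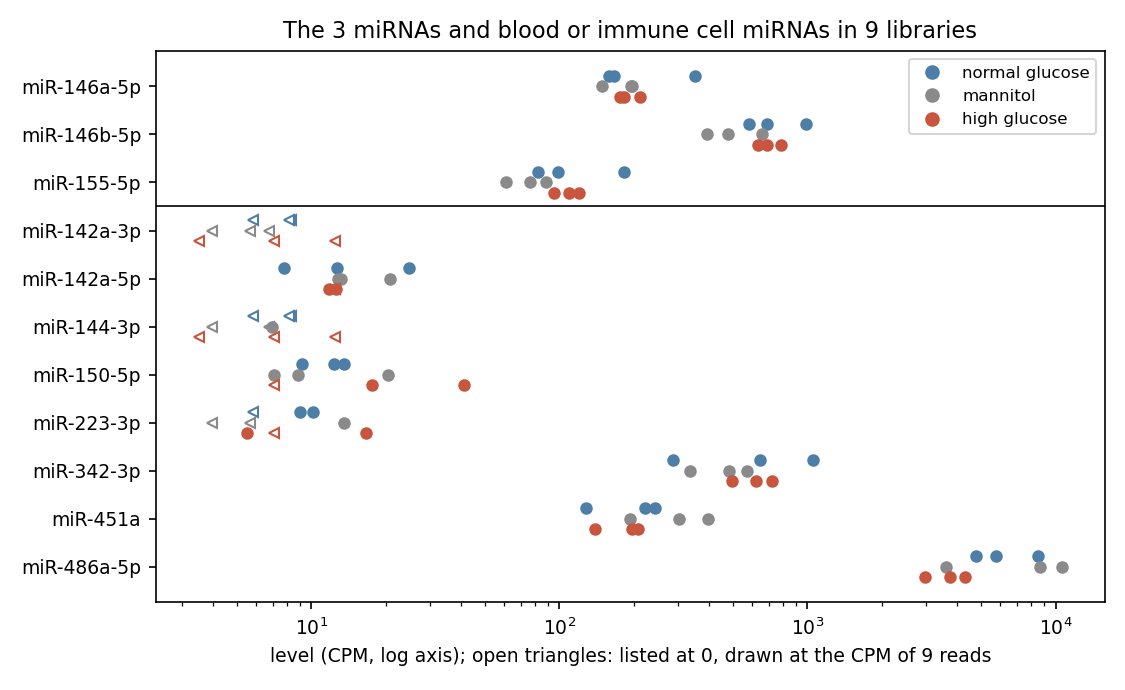
Levels (CPM, log axis) of the 3 miRNAs, above the line, and of 8 blood and immune cell miRNAs, below it, with 1 point per library coloured by treatment; open triangles are libraries where the miRNA is listed at 0, drawn at the CPM of 9 reads. The leukocyte miR-142a-3p is an open triangle in all 9 libraries, while miR-142a-5p of the same hairpin is listed in 8, at up to 24.8 CPM. At most miR-223-3p reaches 16.5 CPM, while the lowest value of the 3 miRNAs is 60.9 CPM.

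The podocyte and kidney epithelial list had 8 of 10 members listed in all 9 libraries and none listed at 0 throughout, and miR-30a-5p, of the family known to be high in podocytes, led it. The summed level of the list ran from 130731 to 144382 CPM in normal glucose, 110070 to 181725 CPM with mannitol and 153932 to 230246 CPM in high glucose. Most of it was miR-30a-5p, at 79829 to 179693 CPM over the 9 libraries.

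The first comparison, of high with normal glucose, measured the treatment as a whole. Differences are log2 fold changes from edgeR's quasi-likelihood test, fitted on all 9 libraries and 361 tested miRNAs, with Benjamini-Hochberg adjusted p-values and a threshold of 0.05. None of the 3 passed. The log2 fold change was -0.13 (SE 0.33, 95% interval -0.83 to 0.58) for miR-146a-5p and 0.02 (SE 0.32, -0.66 to 0.70) for miR-146b-5p. It was -0.04 (SE 0.34, -0.76 to 0.68) for miR-155-5p, and each of the 3 had an adjusted p of 0.995 in edgeR. High glucose was higher in 6, 5 and 5 of 9 pairs of libraries, in the order miR-146a-5p, miR-146b-5p and miR-155-5p. These intervals leave room for changes of either sign, so they do not show that the levels were alike. The groups overlapped for all 3, while for 9.42% of tested miRNAs they did not (2.49% higher and 6.93% lower in high glucose). Across the 361, edgeR called 0 (0.0%), as did DESeq2 and limma-voom, and 10 (2.77%) had an unadjusted edgeR p under 0.05. Without normal glucose replicate 3, miR-146a-5p had 0.23 and miR-155-5p 0.27, both with an adjusted p of 0.961 in edgeR.

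The second comparison, of high glucose with mannitol, held osmolality matched. Here miR-155-5p differed by a log2 value of 0.65 (SE 0.34, 95% interval -0.07 to 1.37) and miR-146b-5p one of 0.61 (SE 0.32, -0.08 to 1.29), both with an adjusted p of 0.704 in edgeR. The value of miR-146a-5p was 0.21 (SE 0.33, -0.50 to 0.92), with an adjusted p of 0.948. It was 0.02 without mannitol replicate 1 and 0.37 without mannitol replicate 2. None passed. For miR-155-5p the groups did not overlap in CPM, with high glucose higher in 9 of 9 pairs of libraries. Of the tested miRNAs 9 of 361 (2.49%) showed this in that direction, 7.76% in the other and 10.2% in either. High glucose was higher in 8 of 9 pairs for miR-146b-5p and in 5 of 9 for miR-146a-5p. Of all tested miRNAs 0 (0.0%) passed in edgeR and 5.26% had an unadjusted p under 0.05, while DESeq2 called 1, miR-182-5p, and limma-voom 0. Without mannitol replicate 2 the value of miR-146b-5p was 0.96, with an adjusted p of 0.0802 in edgeR. In that setting 96 of 372 tested miRNAs had an unadjusted edgeR p under 0.05, against 19 of 361 with all libraries.

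Scaling mattered most in the comparisons with mannitol. When libraries were scaled to the constant behind the deposited normalized values, in place of the TMM factors, the median over the 361 miRNAs shifted to -0.59 in high glucose against mannitol, to 0.50 in mannitol against normal glucose and to -0.12 in high against normal glucose. In high glucose against mannitol miR-155-5p then had 0.07, miR-146b-5p 0.09 and miR-146a-5p -0.37. Relative to the median of all tested miRNAs in that scaling they stood at 0.66, 0.69 and 0.23.

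The third comparison, of mannitol with normal glucose, measured added osmolality without added glucose. It shares the mannitol libraries with the one before and the normal glucose libraries with the first. The log2 fold change was -0.69 (SE 0.34, 95% interval -1.41 to 0.03) for miR-155-5p, -0.59 (SE 0.32, -1.27 to 0.09) for miR-146b-5p and -0.33 (SE 0.33, -1.04 to 0.37) for miR-146a-5p. None passed, with an adjusted p of 0.9996 in edgeR for each. Mannitol was higher in 1 of 9 pairs of libraries for miR-155-5p, 1 of 9 for miR-146b-5p and 4 of 9 for miR-146a-5p, so the groups overlapped in CPM for all 3. In CPM the groups did not overlap for 3.32% of tested miRNAs (2.22% higher and 1.11% lower with mannitol). After TMM scaling those of miR-155-5p did not overlap, at 51.7, 80.1 and 85.8 with mannitol and 95.2, 92.5 and 163 in normal glucose. The share of all tested miRNAs without overlap was not counted in that scaling. Across the 361, edgeR called 0 (0.0%), as did DESeq2 and limma-voom, and 5 (1.39%) had an unadjusted edgeR p under 0.05. Without normal glucose replicate 3 the values were -0.33 for miR-155-5p, -0.39 for miR-146b-5p and 0.07 for miR-146a-5p. Scaled to the library constant they were -0.17, -0.11 and 0.19, or -0.67, -0.62 and -0.31 relative to the median of all tested miRNAs.

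A test for any difference among the 3 groups had an unadjusted p of 0.116 for miR-155-5p, 0.143 for miR-146b-5p and 0.608 for miR-146a-5p, each with an adjusted p of 0.998 in edgeR.

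**Figure D3:**
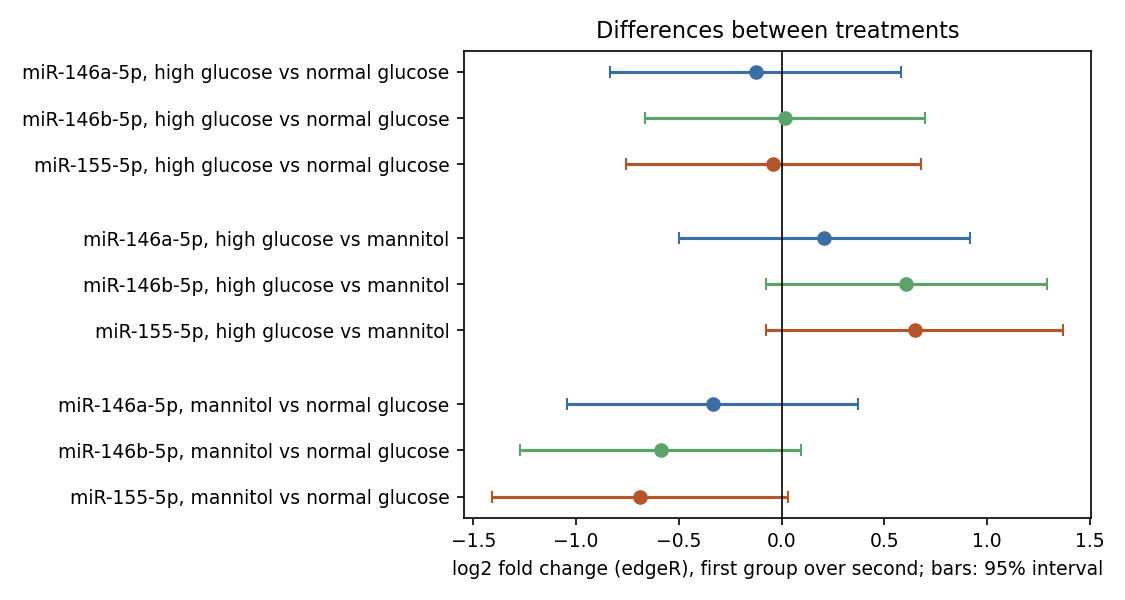
Log2 fold change (edgeR, horizontal axis) of each miRNA in each comparison, first group over second, as a point with its 95% interval. All 9 intervals include 0, and those of miR-155-5p and miR-146b-5p reach it only near their ends in the comparisons with mannitol (for example -0.07 to 1.37 for miR-155-5p in high glucose against mannitol).

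Ratios between the 3 miRNAs within a library do not depend on how libraries are scaled to each other. The ratio of miR-155-5p to miR-146a-5p counts, 2 miRNAs of different seeds and chromosomes, had log2 values of -0.69, -1.02 and -0.95 in normal glucose. The mannitol libraries had -1.28, -1.35 and -1.15, and the high glucose libraries -0.81, -0.89 and -0.75. The 3 mannitol libraries were thus the 3 lowest of all 9, and overlapped with neither other group. On average miR-155-5p had 0.418 reads for each read of miR-146a-5p with mannitol, 0.541 in normal glucose and 0.567 in high glucose (geometric means, n = 3 each).

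High glucose minus mannitol was 0.44 in the log2 ratio of miR-155-5p to miR-146a-5p, and mannitol minus normal glucose was -0.37. Each reached the exact permutation p of 0.1 (two-sided), the smallest that 3 against 3 libraries allow, and adjusted over the 9 ratio tests by Benjamini-Hochberg both had 0.45, so neither passed. High glucose minus normal glucose was 0.07 (exact permutation p = 0.6). The groups did not overlap for 10.5% of all 33670 ratios between miRNAs listed in every library in high glucose against mannitol, for 4.95% in mannitol against normal glucose and for 9.02% in high against normal glucose. With a library left out the differences ran from 0.40 to 0.50 and from -0.44 to -0.28. Counting alone gives this ratio an SD of 0.16 per library, more than the SD of 0.10 with mannitol and 0.07 in high glucose, so the spread within those groups was below the counting error.

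The ratio of miR-146b-5p to miR-146a-5p, which compares the copies with a shared seed, had log2 values of 1.87, 2.06 and 1.49 in normal glucose. The mannitol libraries had 1.69, 1.76 and 1.01, and the high glucose libraries 1.71, 2.16 and 1.80. The lowest library was mannitol replicate 3, where miR-146b-5p had 2.01 reads for each read of miR-146a-5p, and the highest high glucose replicate 2, with 4.46. All groups overlapped, and the smallest exact permutation p was 0.2, for high glucose minus mannitol (0.40). Without mannitol replicate 3 that difference was 0.16, and mannitol minus normal glucose went from -0.32 to -0.08. Across all 9 libraries the geometric mean was 3.30.

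The ratio of miR-155-5p to miR-146b-5p differed least between group means, at -2.69 ± 0.34 for normal glucose, -2.74 ± 0.51 for mannitol and -2.70 ± 0.30 for high glucose (log2, SD, n = 3 each). All groups overlapped, and no comparison had an exact permutation p below 0.9.

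**Figure D4:**
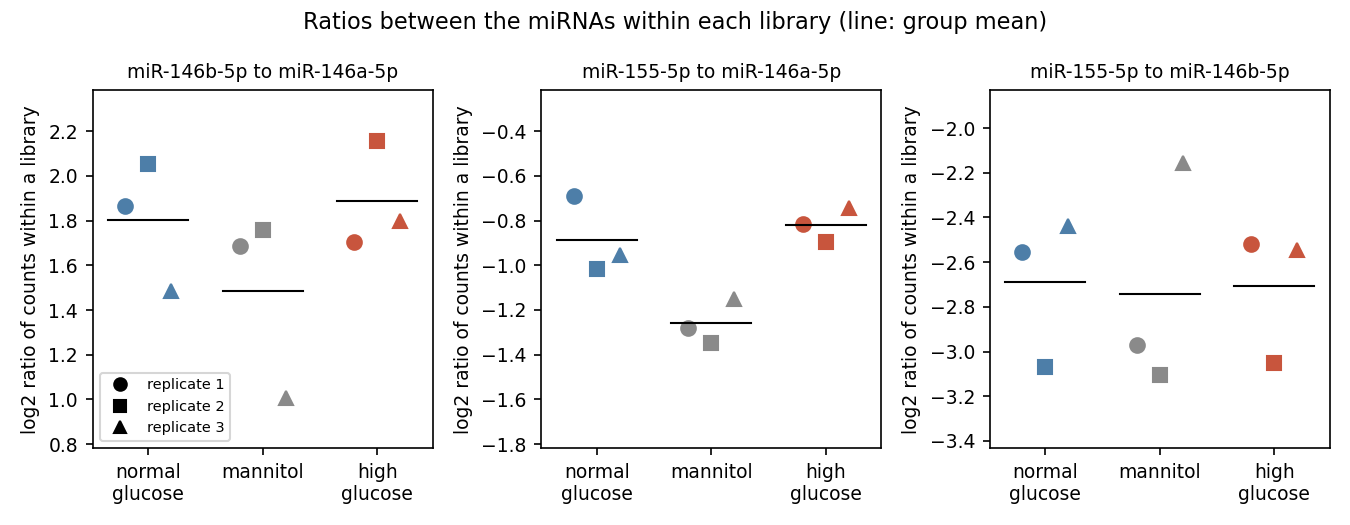
Log2 ratio of the counts of 2 miRNAs within each library (vertical axis, each panel spanning the same range) by treatment; marker shapes give the number in the titles and lines the group means. In the middle panel the mannitol libraries, at -1.35 to -1.15, lie below all others, at -1.02 to -0.69, while the groups overlap in the other panels.

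The profile of each miRNA over the 9 libraries was compared with those of the other 259 miRNAs listed in every library, by the SD of the log2 count ratio, which is 0 for profiles that are parallel. Nearest to miR-146a-5p was miR-155-5p, and nearest to miR-155-5p was miR-146a-5p, with an SD of 0.23 over 9 libraries. The median SD to the other miRNAs was 0.54 for miR-146a-5p and 0.59 for miR-155-5p. Of all 33670 pairs 1.56% had an SD as small. These SDs include counting error, which was 0.16 for this pair and is larger for pairs with few reads, so the share partly reflects read counts. With 1 library left out miR-155-5p was the nearest to miR-146a-5p in 5 of 9 settings, and its place ran from 1 to 7. It was lowest without normal glucose replicate 3, where both miRNAs had their highest CPM.

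The next profiles near miR-146a-5p were miR-493-5p (SD 0.28) and miR-382-3p (0.31), from the imprinted Dlk1-Dio3 locus, and miR-298-5p and miR-196b-5p (0.31 each). For miR-155-5p they were miR-221-5p (0.30), miR-7a-5p (0.32), miR-196b-5p (0.34) and miR-146b-5p (0.34). These shared the libraries, their depth and their composition, and the values are a description with no test.

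In contrast, miR-146b-5p was not nearest to its seed relative. The closest was miR-7a-5p with an SD of 0.18, then let-7g-5p (0.23), miR-103-3p (0.25), miR-26a-5p (0.27) and miR-186-5p (0.29). Its SD to miR-146a-5p was 0.33, in place 17 of 259, and to miR-155-5p 0.34, in place 22, beside a median of 0.57. Of all 33670 pairs 7.6% had an SD as small as the first of these, and 8.34% one as small as the second. Mannitol replicate 3 weighed on the SD between miR-146a-5p and miR-146b-5p. Without it that SD was 0.21, in place 5 seen from miR-146b-5p and place 3 seen from miR-146a-5p. Without normal glucose replicate 3 the places were 43 and 54. The levels of miR-7a-5p were 384, 375 and 595 CPM in normal glucose, 307, 417 and 234 CPM with mannitol and 524, 431 and 482 CPM in high glucose, so it too was highest in normal glucose replicate 3 and lowest in mannitol replicate 3. The mature sequences show that miR-146b-5p and its nearest profile share no seed.
miR-146b-5p: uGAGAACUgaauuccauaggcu
miR-7a-5p: uGGAAGACuagugauuuuguugu
The 2 loci of miR-7a-5p are chr7:78888295-78888317, plus strand, and chr13:58392841-58392863, minus strand (GRCm38.p6), so it does not lie near Mir146b.

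**Figure D5:**
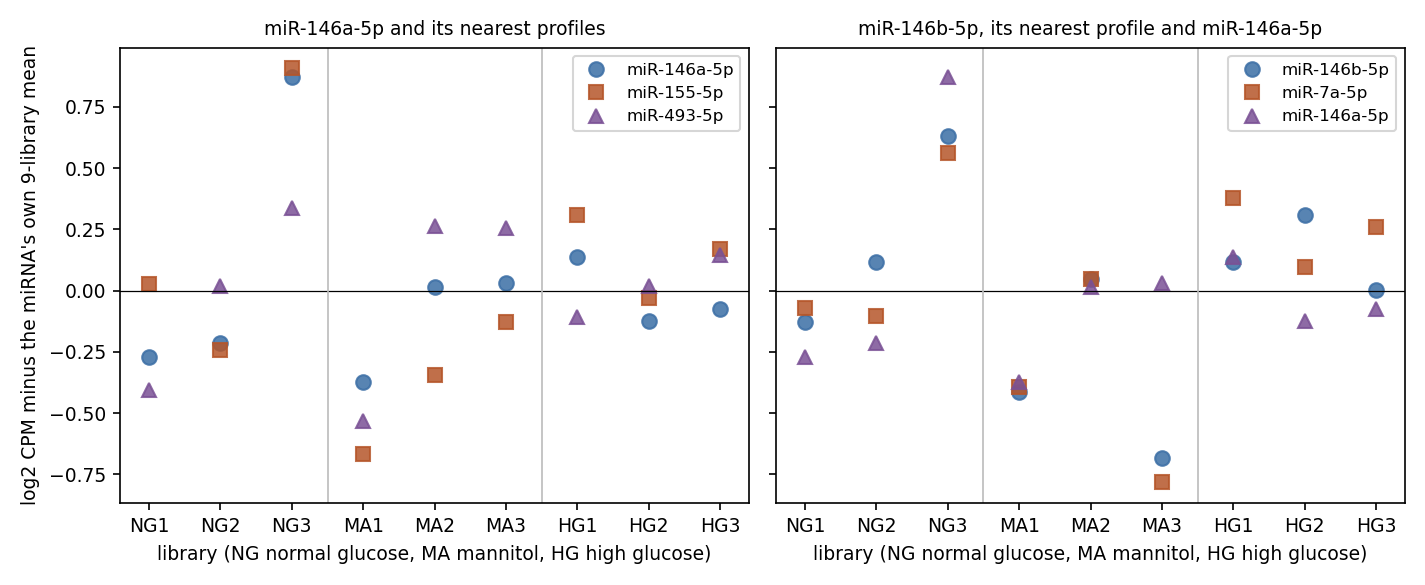
Level in each library as log2 CPM minus the miRNA's own mean over 9 libraries (vertical axis), for miR-146a-5p with miR-155-5p and miR-493-5p on the left, and miR-146b-5p with miR-7a-5p and miR-146a-5p on the right. On the right miR-146b-5p and miR-7a-5p (SD of the log2 ratio 0.18) fall together in mannitol replicate 3, where miR-146a-5p stays near its mean, and all rise in normal glucose replicate 3.

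Other miRNAs linked to inflammatory signalling gave a wider view of the pathway. Of 18 on this list, 16 were tested and 2 were listed at 0 in all libraries, the macrophage-associated miR-147-3p and miR-511-3p. None passed in edgeR in any of the 3 comparisons, and 0 had an unadjusted p under 0.05. Higher in high glucose than in normal glucose were 8 and lower 8, with a median log2 fold change of 0.06, beside -0.04 for all tested miRNAs. In high glucose against mannitol 9 were higher and 7 lower (median 0.11, beside -0.04). In mannitol against normal glucose 5 were higher and 11 lower (median -0.05, beside 0.01).

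The 3 most abundant of that list stood far above the members. The growth and fibrosis miRNA miR-21a-5p, which NF-κB and STAT3 are known to induce, stood between 34139 and 76516 CPM over the 9 libraries, let-7i-5p, reported to target Tlr4, between 10764 and 30107 CPM, and miR-221-3p between 6077 and 9723 CPM. In high glucose against mannitol miR-21a-5p differed by 0.51 on the log2 scale (SE 0.35), let-7i-5p by 0.34 (SE 0.39) and miR-221-3p by 0.21 (SE 0.28). In high against normal glucose they differed by 0.39 (SE 0.35), 0.27 (SE 0.39) and 0.14 (SE 0.28). In mannitol against normal glucose the values were -0.12, -0.07 and -0.06, and none passed.

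Among the marker lists read beside the members, no miRNA passed in any comparison. In high glucose against mannitol the podocyte and kidney epithelial list had 8 of 9 tested members higher (median 0.39) and the blood and immune list 3 of 6 (median -0.01). The mesenchymal list had 3 of 4 higher (median 0.18) and the endothelial list 2 of 2, beside 168 of 361 tested miRNAs (median -0.04). In mannitol against normal glucose these lists, in the same order, had 2 of 9, 2 of 6, 3 of 4 and 0 of 2 higher, beside 188 of 361. In high against normal glucose they had 8 of 9 (median 0.17), 3 of 6, 3 of 4 and 1 of 2 higher, beside 168 of 361 (median -0.04). The part of these lists in the values of miR-155-5p and miR-146b-5p was not tested.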

How the data were processed

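Small RNA libraries of podocyte vesicles were analysed, 9 in all and 3 per treatment, grouped by the treatment label. Per the file headers, each table gives total counts per miRNA, whole-number counts used as deposited, and normalized values, deposited RPM values, each the count over 1 constant per library, of which all miRNA counts were 3.43% to 9.71%. The meaning of that constant is not given. Reads were handled with BWA and bcl2fastq on build mm10, per the submitters' processing notes; with which versions and settings is not stated in the sources used here. The labels do not state separate cultures within a group, and p-values therefore reflect sample-to-sample spread that may be technical. The chi-square per degree of freedom between libraries of a group was 74.8 to 645, so none was a repeat deposit.

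Log2 fold changes were fitted on all 9 libraries with edgeR 4.0.16 (R 4.3.3, TMM, expression filter by group, robust quasi-likelihood, Benjamini-Hochberg over 361 miRNAs, threshold 0.05). All 3 members passed the filter. Within-library log2 ratios were compared by exact permutation tests. Alternatives were DESeq2 1.42.0, limma-voom 3.58.1, RLE scaling, the library constant, no filter, 2 groups only, a replicate block and leaving out each library. The fit was tested on simulated data. The members and lists were chosen with earlier results of these data known. Named were the members, their 5 nearest profiles, the 3 most abundant of a list and those listed at 0 throughout; further list members and miR-182-5p were named after their values were seen.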

Additional observations from a re-analysis of the deposited data

How the results depend on the processing

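No alternative made any of the 3 miRNAs pass. Adjusted p-values over the alternatives (edgeR, DESeq2 and limma-voom) ran from 0.0802 (miR-146b-5p, high glucose against mannitol, without mannitol replicate 2) to 1.0. In high glucose against mannitol and in mannitol against normal glucose, miR-155-5p and miR-146b-5p kept their sign in all 16 alternatives. In high against normal glucose miR-146b-5p turned to -0.0071 with RLE scaling, -0.0193 with the library constant, -0.0131 with 2 groups only and -0.0069 with DESeq2, and miR-155-5p turned to 0.0119 with limma-voom. For miR-146a-5p the library constant turned high glucose against mannitol to -0.367 and mannitol against normal glucose to 0.191.

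With each library left out, high against normal glucose ran from -0.329 to 0.229 for miR-146a-5p, -0.148 to 0.158 for miR-146b-5p and -0.216 to 0.269 for miR-155-5p, and for miR-146a-5p high glucose against mannitol ran from 0.0229 to 0.373 and mannitol against normal glucose from -0.537 to 0.0715. The log2 ratio of miR-146b-5p to miR-146a-5p ran from -0.0737 to 0.211 in high against normal glucose, 0.165 to 0.540 in high glucose against mannitol and -0.476 to -0.0797 in mannitol against normal glucose. That of miR-155-5p to miR-146b-5p ran from -0.209 to 0.156 in high against normal glucose, -0.142 to 0.332 in high glucose against mannitol and -0.350 to 0.125 in mannitol against normal glucose. The cause was not tested.

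Counts of called miRNAs, 0 in each comparison by edgeR, were 2 in high against normal glucose, 3 in high glucose against mannitol and 1 in mannitol against normal glucose without the expression filter, and 1 in high glucose against mannitol by DESeq2 and, over the left-out libraries, 0 to 1. None was a member.

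The labels do not say that a number in the titles marks a shared culture or day. Libraries of the same number had correlations of their deviations from the group means of 0.0431 to 0.682, over 0.1 in 7 of 9 pairs, and 7 of 9 libraries correlated best with their own number, which is a hint of pairing from the data. Between normal and high glucose all 3 were over 0.1 (0.306, 0.296 and 0.322), and 1 of 3 fell below it in each comparison with mannitol (0.0838 and 0.0431), so the block was kept as an alternative. With the number as a replicate block, miR-155-5p had 0.673 in high glucose against mannitol (adjusted p = 0.306 by edgeR) and -0.676 in mannitol against normal glucose (adjusted p = 0.998). There miR-146b-5p had 0.629 (adjusted p = 0.306 by edgeR) and -0.620 (adjusted p = 0.998). The edgeR test for any difference had an unadjusted p of 0.0455 for miR-155-5p, 0.0468 for miR-146b-5p and 0.486 for miR-146a-5p. Adjusted, these were 0.563, 0.563 and 0.919. With the block edgeR called 0 miRNAs in each comparison. Its unadjusted p was under 0.05 for 19, 52 and 17 miRNAs with the block, against 10, 19 and 5 without it, in the order high against normal glucose, high glucose against mannitol and mannitol against normal glucose. The paired sign permutation of the ratios cannot go below 0.25.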
